A study of Mus musculus with 7 samples.

Results

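Sebaceous gland lipid genes were examined in bulk RNA sequencing of aged mouse skin treated with the topical senolytic ABT-263, an inhibitor of anti-apoptotic Bcl-2 family proteins. The 10 genes were chosen by name, as genes of sebocyte lipid synthesis and identity, out of 55450 genes in the deposited count table: Scd1, Scd3, Elovl3, Elovl5, Awat2, Soat1, Far2, Mc5r, Mgst1 and Fabp5. Dorsal skin came from 24-month-old male wild type C57BL/6 mice, which received either DMSO vehicle alone (mice 480, 481, 482 and 483) or 5 µM ABT-263 in DMSO (mice 476, 477 and 478) for 5 days, with 1 library from each mouse. Both groups shared the clipping, the depilatory lotion, the ethanol wash and the semi-occlusive dressing, so the DMSO group is vehicle-treated and depilated skin rather than untouched skin. Whole skin was sequenced, and a lower level of a sebocyte transcript cannot be told apart from fewer sebocytes. The p-values measure the spread among these mice.

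Sebaceous glands are lobes of lipid-filled cells attached to the hair follicle. A sebocyte builds up wax esters, cholesteryl esters and triglycerides and then bursts, releasing its whole content as sebum onto the hair and skin surface. Fatty acids for these lipids are made, desaturated and elongated in the cell, reduced in part to fatty alcohols, and joined by acyltransferases. Peroxisome proliferator-activated receptor gamma and melanocortins are known regulators of the process.

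Other transcripts known from sebocytes were looked up in the same libraries. Their detection in whole skin does not show which cells held the 10 genes. Awat1, an acyltransferase of sebaceous wax esters, Krt79, a keratin of the sebaceous duct and upper follicle, Pparg, Plin2 and Cidea, a lipid droplet protein of sebocytes, were detected in each of the 7 libraries. Awat1 ran from 45.7 to 157 CPM (counts scaled to the library size by the TMM method) and Cidea from 84.5 to 206 CPM. Pparg was lowest of these, from 5.65 to 22.5 CPM. Total counts ran from 20344364 to 26824123 in the DMSO libraries and from 27325963 to 43562330 in the ABT-263 libraries, so each treated library was deeper than each control. The least counted value of any of the 10 genes was 168 reads, for Awat2 in ABT-263 mouse 476. Hair follicle transcripts set a pair of libraries apart. The summed level of 14 hair follicle markers was 3179 CPM in DMSO mouse 481 and 530.2 CPM in ABT-263 mouse 478. It was between 7.97 and 41.9 CPM in the other 5 mice.

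Among the 10 genes, ABT-263 lowered 1 and raised 0 at an adjusted p threshold of 0.05 (edgeR quasi-likelihood test, Benjamini-Hochberg over 17959 genes). The gene lowered was Mc5r, the melanocortin 5 receptor. Across all genes tested, 24.2% passed in either direction, 11.7% lower and 12.4% higher, so the share of 10% among these genes was below the background. All 10 genes passed the filter on low counts. At an unadjusted p under 0.05 in edgeR, 3 genes were lower (Mc5r, Scd3 and Awat2) and 0 were higher. Of all genes tested, 7198 of 17959 reached that level in either direction, a larger share than 3 of 10. The DESeq2 Wald test called 2 lower (Mc5r and Scd3) and 0 higher, beside 5693 of all 30645 genes with a count. Unlike the 17959 genes, those 30645 were not filtered on low counts, so the shares are not alike. The median log2 fold change of the 10 was -0.44, against 0.0022 over all genes tested, with 7 of the 10 values negative. The treated mice lay below all control mice in 2 of the 10 genes, Mc5r and Scd3, and above them in 0, where 37.1% of all genes tested had groups without overlap, 18.4% below and 18.7% above.

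**Figure D1:**
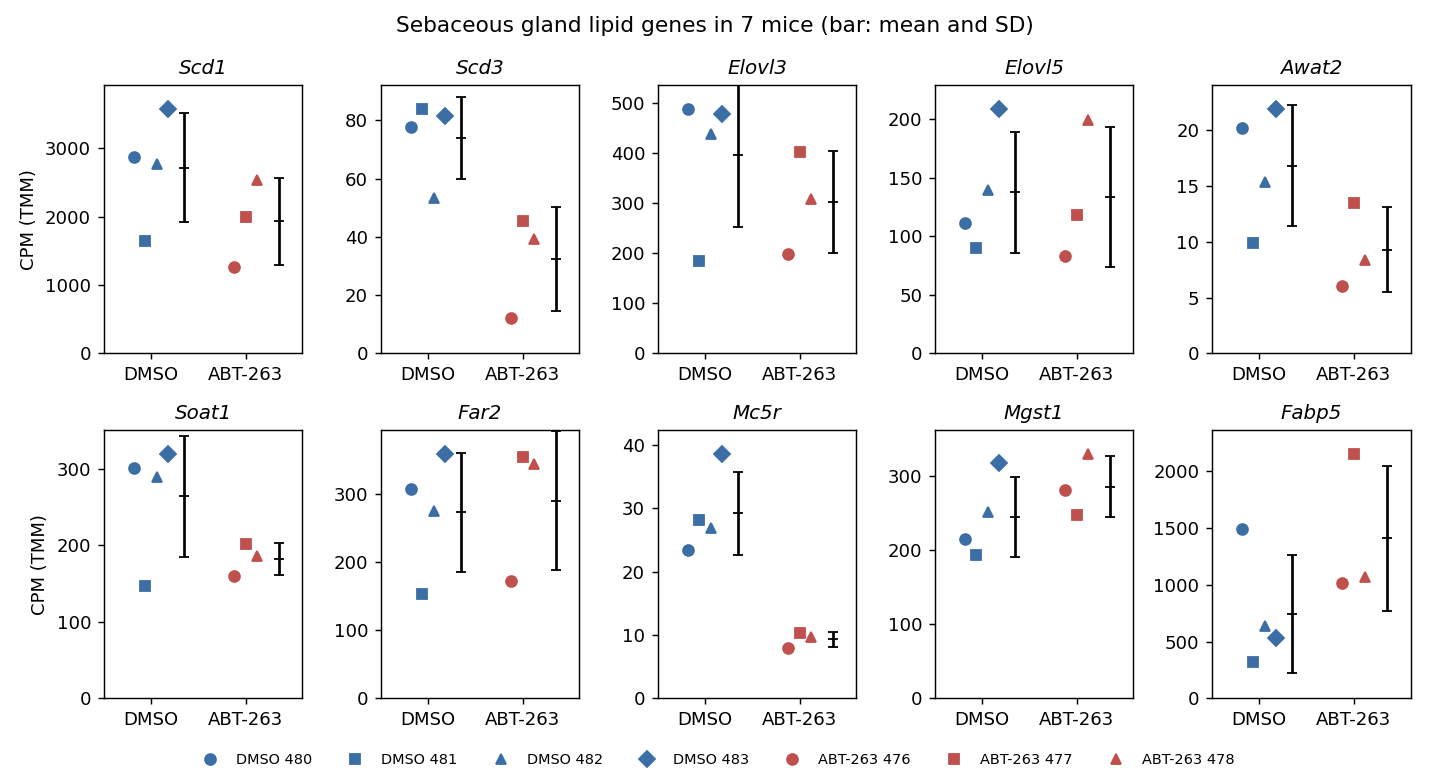
Level of each of the 10 genes in CPM (vertical axes, linear and starting at 0) in 4 DMSO mice (blue) and 3 ABT-263 mice (red), 1 point per mouse, with the mean and SD in black. Mc5r and Scd3 are the genes in which each ABT-263 mouse sits below each DMSO mouse, and mice 481 and 476 are lowest of their group in 8 and 9 of the 10 panels.

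Mc5r encodes a G protein-coupled receptor for melanocortin peptides, known for its role in sebum secretion in mice. In the DMSO mice, Mc5r was at 23.4, 28.1, 26.8 and 38.5 CPM in mice 480, 481, 482 and 483. In the ABT-263 mice it was at 7.94, 10.3 and 9.71 CPM in mice 476, 477 and 478. The groups were well separated, and the treated mice were close to each other. The control mean was 29.2 ± 6.51 CPM (SD, n = 4) and the treated mean 9.31 ± 1.22 CPM (SD, n = 3), or 31.9% of it. The log2 fold change was -1.65 (standard error, SE, 0.20, 95% interval -2.12 to -1.18, adjusted p = 0.00619 from edgeR). Leaving out each mouse in turn gave log2 fold changes from -1.74 to -1.49, with adjusted p between 0.00704 and 0.0301. Mice 481 and 478, the pair with the high hair follicle marker sums, were also left out together. The log2 fold change of Mc5r was then -1.68 with an adjusted p of 0.0751. In that edgeR fit of 3 against 2 mice 0 of 18170 genes passed, although 5185 had an unadjusted p under 0.05. Mc5r lies at chr18:68337596-68342446 on the plus strand (GRCm38).

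Skeletal muscle, which lies under the skin of the back and is another tissue with Mc5r transcripts, also contributed reads. The summed level of 8 fast muscle markers was 37711 to 75998 CPM in the DMSO mice and 28943 to 40266 CPM in the ABT-263 mice, and 2 of the 8 were lower. Mc5r followed this sum within groups to some extent (Pearson r = 0.65 over 7 mice after the group means were subtracted). Per 100000 CPM of the muscle markers, Mc5r was at 62.0, 46.4, 48.1 and 50.6 in DMSO mice 480, 481, 482 and 483, and at 21.6, 35.5 and 24.1 in ABT-263 mice 476, 477 and 478. Each treated mouse thus remained below each control on this scale. Which cells held the Mc5r transcripts was not tested.

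Mc5r was also compared with the other 9 genes within each library. The ratio of Mc5r to the other gene was lower in each treated mouse than in each control mouse for 7 of the 9 genes, the exceptions being Scd3 and Awat2. Relative to Soat1, which forms cholesteryl esters, Mc5r was at 7.75%, 19.2%, 9.26% and 12.1% in the DMSO mice in the order above. It was at 4.96%, 5.10% and 5.21% of Soat1 in the ABT-263 mice, a narrow span below each control. Relative to Awat2 the groups overlapped, with 115% to 285% after DMSO and 76.3% to 132% after ABT-263. Among the 36 ratios that did not involve Mc5r, 12 separated the groups, and of all 45 ratios 19 did. These ratios share genes and are given as a description.

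**Figure D2:**
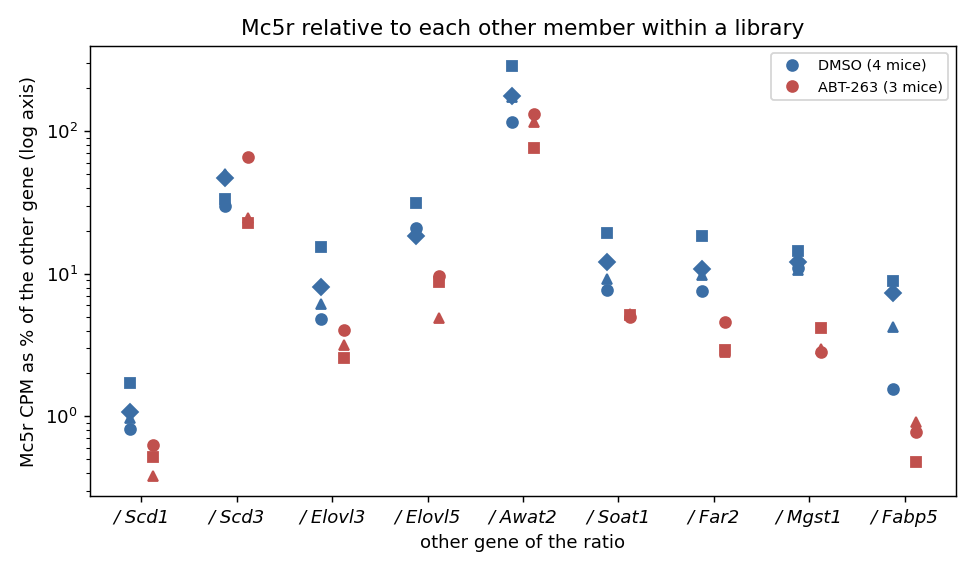
Mc5r CPM as a percent of the CPM of each other gene in the same library (vertical log axis), for 4 DMSO mice (blue) and 3 ABT-263 mice (red), 1 point per mouse. The red points lie below the blue ones for 7 of the 9 genes and overlap them for Scd3 and Awat2.

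Desaturases place the double bond that makes sebum lipids fluid. Scd1, stearoyl-CoA desaturase 1, ranked first of the 10 genes per kb of all its annotated exons joined, at 555 ± 163 CPM per kb after DMSO (SD, n = 4). That rank depends on the length taken, as given below. Scd1 was at 2875, 1639, 2770.4 and 3570.2 CPM in DMSO mice 480 to 483 in order, and at 1262, 1995 and 2535 CPM in ABT-263 mice 476 to 478. The groups overlapped, with mouse 481 low among controls and mouse 476 low among treated mice. The log2 fold change was -0.49 (95% interval -1.26 to 0.28, adjusted p = 0.308).

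Scd3, the desaturase largely restricted to the sebaceous gland, was at 77.7, 83.8, 53.3 and 81.5 CPM in DMSO mice 480 to 483. In ABT-263 mice 476 to 478 it was at 11.98, 45.6 and 39.3 CPM. Each treated mouse lay below each control, but mouse 476 was far under the other treated mice and the difference did not pass (log2 fold change -1.20, SE 0.42, adjusted p = 0.0745 from edgeR). Scd3 passed in the DESeq2 Wald test (adjusted p = 0.0174) and in edgeR without mouse 476 (adjusted p = 0.0460). The ratio of Scd3 to Scd1 overlapped between groups, from 1.92% to 5.11% after DMSO and from 0.949% to 2.28% after ABT-263.

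On chromosome 19, Scd2 and Scd4 lie between Scd1 and Scd3. Scd1 is at chr19:44394455-44407879 on the minus strand and Scd3 at chr19:44203269-44244016 on the plus strand. Their coding sequences were 90.4% identical, and the longest stretch shared base for base was 185 bases of coding sequence, shown here because a read pair lying wholly within it cannot be assigned to either gene. It lies in exons 4 to 5 of Scd1, chr19:44400363-44401865 on the minus strand of GRCm38, the intron between them being left out.
Scd1 and Scd3 shared coding run: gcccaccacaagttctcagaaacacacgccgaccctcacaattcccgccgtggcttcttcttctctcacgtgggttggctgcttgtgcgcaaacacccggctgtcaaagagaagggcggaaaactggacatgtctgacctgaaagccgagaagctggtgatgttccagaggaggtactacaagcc
Counting took uniquely aligned pairs, so such pairs were left out of both genes. Of the 50-base words of Scd1, 3.42% occurred in Scd3, and of those of Scd3, 4.77% occurred in Scd1. Scd2, the desaturase of many other tissues, differed by 0.13 on the log2 scale (adjusted p = 0.775).

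The elongases Elovl3 and Elovl5 extend fatty acids by a pair of carbons, Elovl3 acting on the saturated and monounsaturated very long chains of sebum and Elovl5 on polyunsaturated chains. Elovl3 was at 487, 184, 439 and 477 CPM in DMSO mice 480 to 483 and at 198, 402 and 307 CPM in ABT-263 mice 476 to 478. Mouse 481 was far below the other controls, so the treated range lay inside the control range. Elovl3 had a fitted log2 difference of -0.39 (95% interval -1.24 to 0.46, adjusted p = 0.465). Elovl5 was at 112, 90.3, 139 and 208 CPM after DMSO and at 82.8, 118 and 199 CPM after ABT-263, and the groups overlapped, with mouse 476 just below the lowest control. Its log2 fold change was -0.04 (95% interval -0.88 to 0.80, adjusted p = 0.946), and its sign turned when mouse 483, 476 or 477 was left out.

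Far2, Awat2 and Soat1 form the alcohols and esters of sebum. Far2, a reductase that turns fatty acyl-CoA into fatty alcohol, was at 307, 153, 274 and 357 CPM in DMSO mice 480 to 483 and at 172, 353 and 344 CPM in ABT-263 mice 476 to 478. Both groups held 1 low mouse and otherwise similar values. For Far2 the log2 fold change was 0.09 (95% interval -0.69 to 0.87, adjusted p = 0.872) and turned to -0.11 without mouse 481 and to -0.07 with trends on length and GC content removed. Of the exon bases of Far2, 12.6% are overlapped on the other strand by Ergic2 and Far2os2, and counting was stated to use the strand.

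Awat2, which joins fatty alcohols to acyl-CoA as wax esters, was at 20.3, 9.86, 15.4 and 21.9 CPM after DMSO and at 6.01, 13.5 and 8.38 CPM after ABT-263, in the order of mice above. Only mouse 481 brought the control range down into the treated range. Awat2 did not pass with all mice (log2 fold change -0.86, SE 0.35, adjusted p = 0.107), and without mouse 477 it passed (-1.21, adjusted p = 0.0485). For Awat1, the related acyltransferase, the difference was log2 -0.93 (adjusted p = 0.110, and 0.0214 without mouse 481), and Awat2 stayed at 11.8% to 20.1% of Awat1 after DMSO and at 13.1% to 17.3% after ABT-263. In contrast, Far2 was 1514% to 1780% of Awat2 in the control mice and 2619% to 4105% in the treated mice, so these transcripts of successive steps differed in their ratio without overlap. This ratio was chosen after its values were seen.

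Soat1, sterol O-acyltransferase 1, was at 301, 147, 290 and 319 CPM in DMSO mice 480 to 483 and at 159.9, 202 and 186 CPM in ABT-263 mice 476 to 478. The treated mice were near each other, and 3 of the 4 controls lay above all of them. The log2 fold change was -0.53 (SE 0.27, adjusted p = 0.171), and it was -0.74 (adjusted p = 0.0272) without mouse 481. Soat2, the other cholesterol acyltransferase and mainly a gene of liver and intestine, was higher by log2 3.04 (adjusted p = 0.0490), but its level was 6.19 CPM in mouse 476 and 0.706 and 0.730 CPM in the other treated mice. With that mouse left out, the log2 difference of Soat2 was 1.24 (adjusted p = 0.253), and the call was lost with 6 of the 7 mice left out singly, all but mouse 477.

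Mgst1, a membrane-bound glutathione transferase known from sebocytes, was at 214, 194, 252 and 317 CPM after DMSO and at 280.4, 248 and 329 CPM after ABT-263. The groups overlapped, and the log2 fold change was 0.23 (95% interval -0.23 to 0.69, adjusted p = 0.431). Within groups Mgst1 moved with the summed level of 12 dermal adipocyte markers (r = 0.82 over 7 mice), of which 0 passed in edgeR, 2 had an unadjusted p under 0.05 and 1 passed in DESeq2. That sum was 1849 to 4395 CPM after DMSO and 2149 to 7019 CPM after ABT-263.

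Fabp5, the epidermal fatty acid-binding protein, carries fatty acids in keratinocytes as well as in sebocytes. It was at 1497, 318, 635 and 529 CPM in DMSO mice 480 to 483 and at 1017, 2149.8 and 1071 CPM in ABT-263 mice 476 to 478. It was the most variable of the 10 genes among controls, with a coefficient of variation of 69.6%, and mouse 480 was inside the treated range. For Fabp5 the log2 fold change was 0.92 (SE 0.52, adjusted p = 0.227), and without mouse 480 it was 1.51 (adjusted p = 0.0329). Fabp5 followed the summed level of 8 wound keratinocyte markers such as Krt6a and Krt16, with r = 0.99 over 7 mice within groups. This sum was 21119 CPM in mouse 480 and 2703 to 5615 CPM in the other controls, and 24043 CPM in mouse 477 against 10795 and 11616 CPM in the other treated mice. Of the 8 markers 1 was higher and 0 lower, where 12.4% and 11.7% of all genes tested were. The log2 fold changes of the 8 were positive in 7 and negative in 1, with a median of 1.01. Fabp5 was at 7.09% to 11.8% of that sum after DMSO and at 8.94% to 9.42% after ABT-263, with overlap. Relative to the summed level of 7 basal keratinocyte markers the groups did not overlap, with 1.74% to 4.795% after DMSO and 5.98% to 7.33% after ABT-263. The same held relative to the basal keratin Krt14 alone, with 3.78% to 7.04% after DMSO and 8.64% to 10.7% after ABT-263.

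Fabp5 has processed copies elsewhere in the genome, and the copy Gm6166 was read at 40.1% to 43.5% of the Fabp5 level in the control mice and at 39.7% to 44.1% in the treated mice. Gm6166 lies at chr9:57483963-57484371 and was 98.3% identical to Fabp5 over 407 aligned bases. The longest stretch they share is shown here, since a read pair lying wholly within it has the bases of both. Counting took uniquely aligned pairs, so a pair that aligned equally well to both was left out. It covers exons 1 to 2 of Fabp5, chr3:10012649-10015079 on the plus strand of GRCm38, without the intron.
Fabp5 and Gm6166 shared coding run: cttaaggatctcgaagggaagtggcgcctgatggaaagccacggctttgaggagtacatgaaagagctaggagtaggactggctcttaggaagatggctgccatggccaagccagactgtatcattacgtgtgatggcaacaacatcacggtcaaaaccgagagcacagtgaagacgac
All 179 bases are coding sequence of Fabp5. Counts of 5 such copies (Gm6166, Gm14328, Fabp5l2, Gm13998 and Gm6100) had log2 fold changes from 0.90 to 1.31 and did not pass. Whether their reads came from Fabp5 transcripts was not tested, so the Fabp5 level here is uncertain in size.

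**Figure D3:**
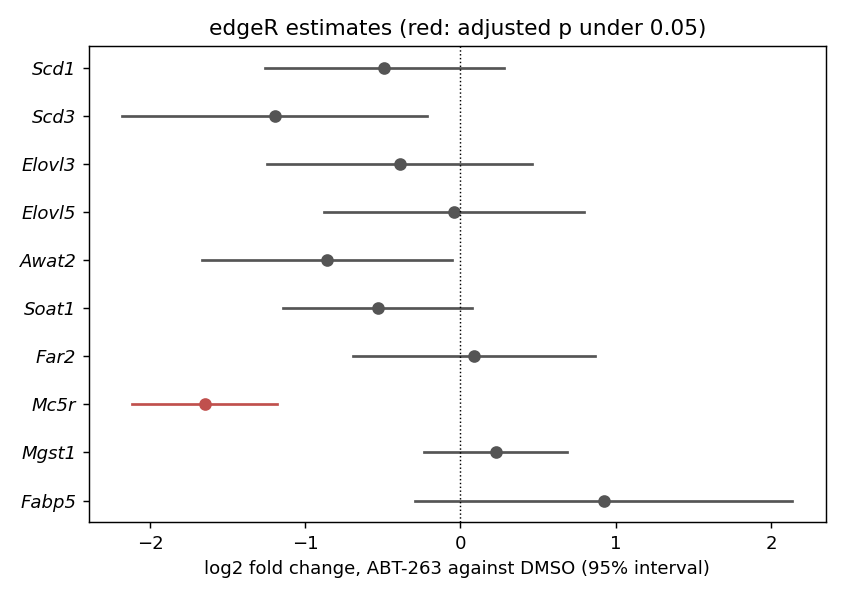
Log2 fold change of each gene, ABT-263 against DMSO (horizontal axis), from edgeR, with its 95% interval. The interval of Mc5r runs from -2.12 to -1.18, and it is the only one in red (adjusted p under 0.05); those of Scd3 and Awat2 also lie below 0 but did not pass after adjustment.

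Per kb of exon, the order of the 10 genes in control skin was Scd1, Fabp5, Elovl3, Mgst1, Elovl5, Far2, Soat1, Scd3, Awat2 and Mc5r. All annotated exons of a gene were joined for this length, and the order depends on that choice. Joined exons were 3567 bases for Fabp5, against 987 for its longest protein-coding transcript, and 4892 against 4832 for Scd1. On those transcript lengths the control mean of Fabp5 would lie above that of Scd1. For Far2 joined exons were 7313 bases against 3480 in its longest transcript, and for Mgst1 2013 against 1167. Means were 555 ± 163, 209 ± 145, 201 ± 72.7 and 121 ± 26.8 CPM per kb for the first 4 (SD, n = 4). Neighbours among these overlapped across mice, although per kb of joined exons Scd1 was above Fabp5 within each control mouse. All mice were then lower for Elovl5 (39.0 ± 14.6), Far2 (37.3 ± 11.9), Soat1 (27.0 ± 8.10) and Scd3 (20.9 ± 3.97 CPM per kb). Neighbours among these 4 overlapped too, but Scd3 did not overlap Awat2. Awat2 (7.93 ± 2.55) and Mc5r (7.48 ± 1.67 CPM per kb) came last and did not differ beyond their spread. In the treated mice Mc5r was at 2.03 to 2.63 CPM per kb and Awat2 at 2.83 to 6.34, with no overlap.

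Much of the spread was shared between genes. Mouse 481 was the lowest control in 8 of the 10 genes and mouse 476 the lowest treated mouse in 9, while mice 483 and 477 were each the highest of their group in 7. On the log2 scale, the 10 genes averaged 0.56 below their group mean in mouse 481 (mean deviation -0.56) and 0.49 below it in mouse 476 (-0.49). Mouse 481 was the control with the high hair follicle marker sum. Mouse 476 had the highest summed level of 10 macrophage markers, 4512 CPM, against 1373 and 1937 CPM in the other treated mice and 392 to 1139 CPM in the controls, and 7 of the 10 were higher. It also had the highest neutrophil marker sum (8377 CPM, against 5098 and 5564 in the other treated mice). Within groups, Pearson r of the 10 genes with the macrophage sum ran from -0.81 for Scd3 to 0.44 for Soat1. It was 0.04 for Scd1 and -0.05 for Awat2. With the neutrophil sum it ran from -0.36 for Mc5r to 0.80 for Soat1. The part of these cells in the sebaceous values was not tested.

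After the group means were subtracted, the median Pearson r of the 45 pairs of genes was 0.58 over 7 mice, and 3 pairs had a negative r. Scd1, Elovl3, Awat2, Soat1 and Far2, a group picked after the values were seen, had r from 0.78 to 0.97 with each other (median 0.89). Mc5r had a median r of 0.49 with the other 9 genes, Scd3 of 0.46 and Fabp5 of 0.43. These points share libraries and depth, and the correlations are a description.

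**Figure D4:**
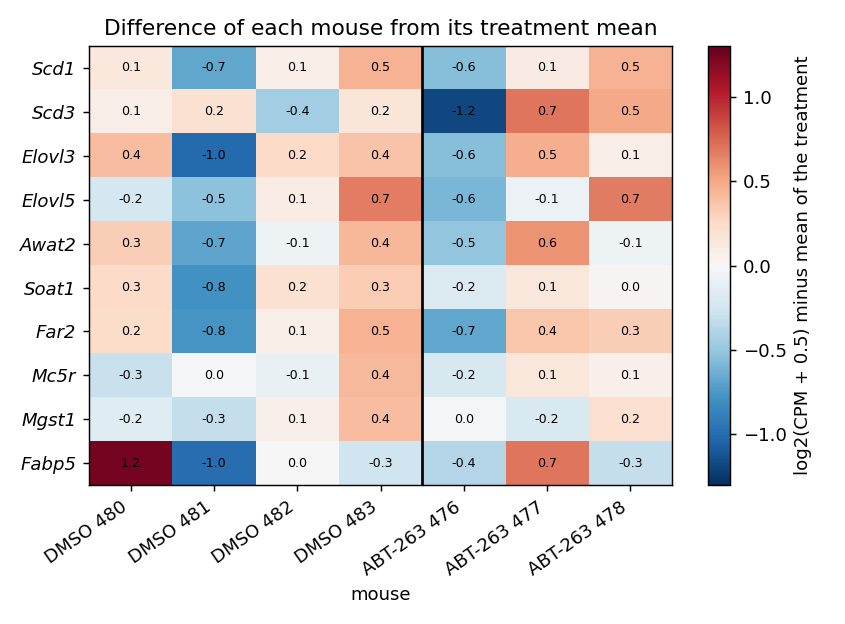
Difference of log2(CPM + 0.5) of each gene in each mouse from the mean of its treatment group (colour and printed value, blue below and red above the mean). Mice 481 and 476 are blue in 9 and 10 of the 10 genes, while the Mc5r row is pale in most mice.

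The genes whose levels ran most like Awat2 among 15589 genes, by Pearson r of the same deviations over 7 mice, were Hdac8 (r = 0.99), Acbd6 (0.99), Tmem97 (0.99), Trp53i13 (0.99) and Slc16a13 (0.99). Acbd6 and Tmem97 passed as lower after ABT-263, with log2 fold changes of -1.13 (adjusted p = 0.0155) and -1.04 (adjusted p = 0.0265), as did Trp53i13 (-0.82, adjusted p = 0.0140). Hdac8 (-0.13) and Slc16a13 (-0.51) did not pass. Of the lipid genes, the best placed were Elovl6 at rank 15, Cidea at 19, Tecr at 31, Elovl4 at 36 and Elovl3 at 81. The other members stood lower: Far2 at 138, Soat1 at 371, Scd1 at 611 and Fabp5 at 845. Scd3 was at 2500, Elovl5 at 2577, Mc5r at 3343 and Mgst1 at 4739. Of the named pathway genes, Apoc1 was at 154, Awat1 at 166, Acaca at 241, Acsbg1 at 317, Fasn at 761 and Krt79 at 778. Pparg was at 1173, Srebf1 at 4511 and Fads2 at 15221 (r = -0.84). The lipid genes thus ran from close to Awat2 to opposite to it.

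The wider pathway was followed in 3 lists, with 60 of 64 genes tested. Of the 60, 2 were higher and 4 lower, or 10%, against 24.2% of all genes. The background for the counts below was 7198 of 17959 genes at an unadjusted p under 0.05 in edgeR. For DESeq2 calls it was 5693 of 30645 genes, which were not filtered on low counts. The median log2 fold change was -0.30 for fatty acid synthesis, -0.06 for lipid ester synthesis, -0.03 for sebocyte identity and storage and 0.0022 for all genes tested.

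In fatty acid synthesis, 2 of 21 genes were lower and 0 higher, and at an unadjusted p under 0.05 there were 4 lower and 0 higher (DESeq2 called 3 lower and 0 higher). Tecr, the reductase of the last step of chain elongation, was at 748, 457, 580 and 712 CPM in DMSO mice 480 to 483 and at 202, 423 and 305 CPM in ABT-263 mice 476 to 478. Its log2 fold change was -1.01 (SE 0.29, adjusted p = 0.0375), and the call was lost without mouse 480, 482, 483, 476 or 478 (adjusted p up to 0.108). Acacb, an acetyl-CoA carboxylase that controls fatty acid entry to mitochondria, was at 300.2, 249.7, 318 and 423 CPM after DMSO and at 148, 181 and 217 CPM after ABT-263. Both genes separated the groups, and for Acacb the log2 fold change was -0.83 (adjusted p = 0.0306), lost as a call without mouse 482, 483, 476, 477 or 478 (adjusted p up to 0.0960). For Fasn, fatty acid synthase, the log2 fold change was -0.41 (adjusted p = 0.369), and for Acaca, which supplies malonyl-CoA, -0.41 (adjusted p = 0.157). Elovl6, which elongates palmitate, had -0.76 (adjusted p = 0.135, and 0.0416 without mouse 477), Elovl4 -0.35 (0.513), Elovl1 0.07 (0.919), Fads1 0.35 (0.165) and Fads2 -0.30 (0.552). Srebf1, the regulator of these enzymes, was at 102 to 129 CPM after DMSO and at 99.8 to 125 CPM after ABT-263, with a log2 fold change of -0.01 (95% interval -0.32 to 0.30).

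In lipid ester synthesis, 2 of 19 genes were higher and 0 lower (3 higher and 2 lower at an unadjusted p under 0.05, and 1 higher and 0 lower in DESeq2). Acsl1, which activates long-chain fatty acids, was at 75.7, 94.2, 82.8 and 91.0 CPM after DMSO and at 130.2, 121 and 252 CPM after ABT-263. The groups did not overlap, with mouse 478 highest, and the log2 fold change was 0.96 (SE 0.26, adjusted p = 0.0310). Without mouse 478 it was 0.55 (adjusted p = 0.0539), and the call was also lost without any 1 of the 4 controls (adjusted p up to 0.0819). Acsl1 is also a gene of adipocytes, whose marker sum was highest in mouse 478. The other gene was Soat2, described above. Dgat2, of triglyceride synthesis, differed by log2 0.46 (adjusted p = 0.260, and 0.0435 without mouse 480), Far1 of 0.06 (0.843) and Acsbg1 of -0.19 (0.678).

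In sebocyte identity and storage, 2 of 20 genes were lower and 0 higher (3 in each direction at an unadjusted p under 0.05, and 3 lower and 0 higher in DESeq2). Apoc1, an apolipoprotein expressed in sebaceous glands, fell by 0.72 on the log2 scale (adjusted p = 0.0457) with overlapping groups and was named after its values were seen. It lost the call without mouse 480, 482, 483, 476 or 478 (adjusted p up to 0.141). Pparg was at 12.8, 5.65, 8.32 and 14.8 CPM after DMSO and at 15.6, 16.5 and 22.5 CPM after ABT-263. The treated mice lay above each control, but Pparg did not pass (log2 fold change 0.81, adjusted p = 0.101 from edgeR). Mice 483 and 478, highest of their group for Pparg, also had the highest dermal adipocyte marker sums of their group (4395 and 7019 CPM). Which cells held the Pparg transcripts was not tested. Krt79 had -0.40 (adjusted p = 0.455), Lrig1, a stem cell marker of the gland's junction, 0.27 (0.389), Prdm1 0.78 (0.112, and 0.0286 without mouse 480), Plin2 -0.11 (0.781), Cidea -0.44 (0.283) and Fabp4 0.49 (0.362). Glyatl3 had 0 counts in all 7 libraries.

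**Figure D5:**
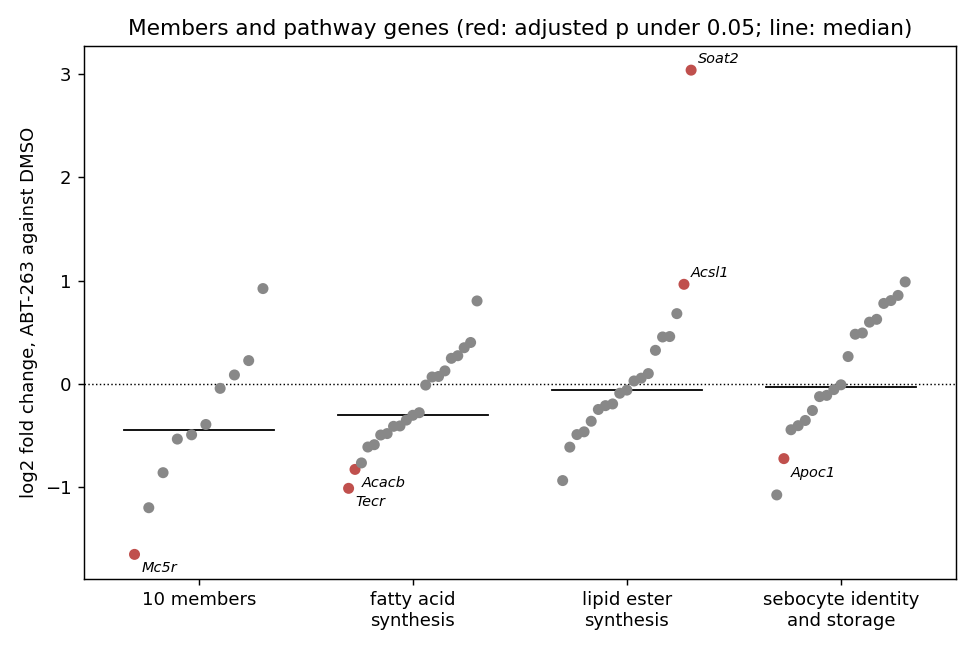
Log2 fold change, ABT-263 against DMSO (vertical axis), of the 10 genes and of the tested genes of the 3 pathway lists, 1 point per gene, with the median of each as a line. Red points passed an adjusted p of 0.05: Mc5r among the 10, Tecr and Acacb, Acsl1 and Soat2, and Apoc1 in the lists. 1 tested gene of the third list is not drawn.

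RefSeq promoter windows of GRCm38.p6, from 250 bases before to 50 after the start, were held for 6 of the 10 genes (8 windows, for Soat1, Mgst1, Far2, Elovl5, Scd3 and Awat2). On both strands, 0 of the 8 held the sterol regulatory element TCACNCCAC, the nuclear receptor half-site AGGTCA or the TATA sequence TATAAA, which occurred in 1.24%, 16.3% and 13.6% of 32851 windows. This says only that these letters are not in these windows.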

How the data were processed

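Per the labels and the study's methods, the authors aligned reads to mm10 with STAR 2.7.9a and counted uniquely aligned proper pairs on the same strand for non-mitochondrial genes (featureCounts, Subread 1.6.2, Ensembl annotation). The deposited files hold raw counts and, from DESeq2 1.23.10, a variance-stabilizing transform close to log2. The labels and the methods name different RNA extraction kits, and no batch. Here edgeR 4.0.16 (R 4.3.3) was used on the counts: TMM scaling, filterByExpr and a robust quasi-likelihood test with treatment as the term, tested on simulated data. CPM are TMM-scaled. Symbols, lengths and GRCm38 coordinates came from GENCODE M21, which held 55190 of the 55450 identifiers. DESeq2 1.42.0 and limma 3.58.1 (on the deposited log2-scale values) served as alternatives, with other filters, scaling, thinning, length and GC trends (mgcv 1.9.3) and each mouse left out.

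The members, lists and named genes were chosen with earlier results of these data known. Named were all 10 members, 22 pathway genes whatever their values, up to 3 passing pathway genes in each direction, copies that could share reads, and the 5 genes most like Awat2 with a mean of at least 1 CPM. The hair follicle list had 15 genes, of which 14 were matched. The other was not analysed here. A further gene of the sebocyte identity list was counted with its list but is not reported here. Depth was 20344364 to 43562330 counts, and the number of mice limits precision more than counting does.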

Additional observations from a re-analysis of the deposited data

Results flagged for a closer look

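In the 4 DMSO mice, 49 measures were examined for a mouse whose gap to the nearest other exceeded Dixon's critical value at the 95% level, which chance passes about 1 time in 20 (2.45 of 49). There were 7 such measures. Mouse 481 was low for Elovl3, at 184 CPM against 439 to 487 CPM in the other controls (ratio of gap to range 0.840), and for Soat1, at 147 against 290 to 319 CPM (ratio 0.832). The same mouse was high for Fads2, a desaturase of polyunsaturated fatty acids, at 17.2 against 7.55 to 8.55 CPM (0.896), and for the summed hair follicle markers, at 3179 against 31.2 to 41.9 CPM (0.997). Mouse 480 was high for the summed basal keratinocyte markers, at 31227 against 18201 to 19378 CPM (0.910), and for the summed wound keratinocyte markers, at 21119 against 2703 to 5615 CPM (0.842). Mouse 483 was high for Fabp4, at 1209 against 523 to 625 CPM (0.851). Values of the 3 ABT-263 mice were not examined in this way.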

How the results depend on the processing

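Mc5r kept its direction and its call under each alternative named with the methods, with log2 fold changes from -1.80 to -1.49, and lost the call (adjusted p = 0.0751) without mice 481 and 478 together, an alternative chosen after seeing the data. That setting gave 0 calls for all genes, for these 10 genes and for the pathway lists (3 against 2 mice, edgeR, 5185 genes at an unadjusted p under 0.05). The DESeq2 Wald test called 2 of the 10 genes lower, and the other alternatives with all mice 1. With each mouse left out in turn, 1735 to 4169 genes passed (850 to 2286 higher, 771 to 2104 lower), 0 to 1 of the 10 were higher and 1 to 2 lower, and 0 to 3 pathway genes were higher and 1 to 5 lower. All-gene calls fell most without mice 478 (1735), 482 (1824) and 483 (2063), and the cause was not tested. With all mice, 4342 genes passed in edgeR and 5693 in DESeq2.

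Pathway genes higher numbered 1 rather than 2 in DESeq2, with DESeq2 size factors, with every gene or only genes with at least 10 counts tested, with protein-coding genes only, in limma and with length and GC trends removed, where 7 rather than 4 were lower.

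Signs turned only for log2 fold changes that had not passed. Far2 went to -0.0653 with length and GC trends removed, to -0.24 without mice 481 and 478, and to between -0.11 and 0.36 with 1 mouse left out. Elovl5 ranged from -0.45 to 0.23 and Elovl1 from -0.21 to 0.51 with 1 mouse left out, and Elovl1 was -0.0151 with the trends removed. Srebf1 was 0.0031 in DESeq2, 0.0231 with every gene tested, 0.0045 in limma and -0.0839 to 0.0770 with 1 mouse left out. With 1 mouse left out, Scd2 ranged from -0.0253 to 0.36, Fads2 from -0.47 to 0.0645, Far1 from -0.0611 to 0.20, Plin2 from -0.31 to 0.0043 and Acsbg1 from -0.49 to 0.12, and Far1 was -0.0504 without mice 481 and 478. No paired analysis was possible because the groups share no mouse numbers. With 4 and 3 mice, smaller changes than that of Mc5r could be missed.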
